A study of Mus musculus with 6 samples.

Results

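Adult neurogenesis in the hippocampus was represented by 9 genes: Dcx, Sox11, Sox4, Ccnd2, Mki67, Top2a, Nes, Neurod2 and Neurod6. All probe sets annotated to them were taken, 13 of 12488 on the array, and every one of the 9 genes was held by at least 1. The 6 arrays each carry total RNA from mouse hippocampus, from work on HuD overexpressor mice. HuD, the product of Elavl4, is an RNA-binding protein of neurons. The labels name the tissue and organism, and the sample titles add a suffix, which ends in le2 for sample 2 and in le1 for the other 5. What the suffix stands for is not stated. The labels give no genotype, strain, age, sex, transgene promoter or pooling of animals. No sample was therefore called transgenic or control, and samples are named 1 to 6 after their titles. What follows gives each member in each sample and how the samples differ, with no replicate check behind a difference between any pair of them.

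In the adult hippocampus, new granule neurons arise in the subgranular zone of the dentate gyrus. Radial glia-like stem cells, which carry the intermediate filament nestin (Nes), give rise to dividing progenitors, marked by Mki67 and Top2a and dependent on cyclin D2 (Ccnd2). Their daughters become neuroblasts that contain doublecortin (Dcx), a microtubule-binding protein of migrating neurons, and the transcription factors Sox4 and Sox11. Neurod2 and Neurod6 are basic helix-loop-helix factors of differentiating and mature excitatory neurons. Neurod6 is known chiefly from pyramidal neurons, so these 2 members also mark the mature tissue. The dividing and immature cells are a small part of the adult hippocampus.

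Promoter sequences are shown for 4 members: Top2a and Mki67, division genes with a probe set at the floor in all samples, and Sox11 and Neurod6, the members with the widest differences between samples among those above the array median. Each runs from 250 bases before to 50 after the RefSeq transcription start (GRCm38.p6). RefSeq windows were held for 8 of the 9 genes, 9 windows in all, with Ccnd2 missing. Capitals mark matches, on either strand, to CCAAT (the NF-Y box), TTTGAA (the cell cycle genes homology region of genes expressed at division), TTTNGCGC (E2F), CAGATG (a NeuroD E-box) and ACAANG (a SOX site). No matches overlapped one another.
Top2a, chr11:99024140-99024439, minus strand: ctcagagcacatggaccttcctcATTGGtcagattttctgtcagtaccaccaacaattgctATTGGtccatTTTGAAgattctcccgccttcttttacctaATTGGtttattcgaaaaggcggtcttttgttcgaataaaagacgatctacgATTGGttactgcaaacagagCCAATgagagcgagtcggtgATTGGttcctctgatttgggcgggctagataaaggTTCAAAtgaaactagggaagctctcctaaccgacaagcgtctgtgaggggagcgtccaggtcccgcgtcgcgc
Mki67, chr7:135716330-135716629, minus strand: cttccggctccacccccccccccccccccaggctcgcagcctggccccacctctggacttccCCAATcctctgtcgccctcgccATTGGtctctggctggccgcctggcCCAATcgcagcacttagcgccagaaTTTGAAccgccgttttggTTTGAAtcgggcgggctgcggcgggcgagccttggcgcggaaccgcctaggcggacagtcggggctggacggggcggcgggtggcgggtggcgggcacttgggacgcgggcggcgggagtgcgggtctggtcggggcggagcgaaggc
Sox11, chr12:27342669-27342968, minus strand: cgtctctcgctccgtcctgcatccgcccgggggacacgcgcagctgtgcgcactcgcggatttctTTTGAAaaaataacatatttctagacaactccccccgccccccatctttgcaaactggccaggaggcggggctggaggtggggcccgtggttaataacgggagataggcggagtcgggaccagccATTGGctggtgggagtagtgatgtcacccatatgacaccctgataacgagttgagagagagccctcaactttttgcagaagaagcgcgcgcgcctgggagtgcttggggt
Neurod6, chr6:55681214-55681513, minus strand: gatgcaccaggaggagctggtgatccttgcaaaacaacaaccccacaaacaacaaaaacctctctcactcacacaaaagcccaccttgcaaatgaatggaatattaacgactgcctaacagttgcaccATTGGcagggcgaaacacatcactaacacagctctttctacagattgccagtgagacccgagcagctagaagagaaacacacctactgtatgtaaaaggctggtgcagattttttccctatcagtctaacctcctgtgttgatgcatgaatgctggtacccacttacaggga

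The Top2a window held 6 matches to CCAAT and 2 to TTTGAA, and the Mki67 window held 3 and 2. Sox11 held 1 of each, and Neurod6 held 1 to CCAAT alone among these letters. The NF-Y box was found for 7 of the 8 member genes, against 37.4% of 32851 RefSeq promoter windows of the same length. TTTGAA was found for 3 of 8, against 17.9% of windows. CAGATG was found for 1 gene, Neurod2, against 17.2%. ACAANG was found for 1 gene, Dcx, against 41.2%, and TTTNGCGC for 0, against 1.38%. A match describes these letters only and shows no bound factor.

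Values are signal intensities on a linear scale. With the lowest and highest 2% left out, every array had a mean signal of 150.1, and the array medians lay between 59.9 and 63.3. Each signal was divided by the array's own median, values under 0.2 of it were set to 0.2, and the range of a gene is its highest over its lowest sample on that scale. A gene counted as above the array median when its median over the 6 samples was. That held for 4838 of 8251 genes (58.6%). Detection calls were not used here, so a signal under the array median is not shown to be above background. Of the members, 6 genes (7 of 13 probe sets) were above the array median, and Ccnd2, Mki67 and Top2a were not. The counts of members past a fold below cover those 6 genes only.

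The tissue label was set against its markers. Of 7 hippocampal neuron genes on the array, 6 were above the array median in their medians over samples, against 58.6% of all genes, and the exception was Prox1, the dentate granule neuron factor, with signals from 26.9 to 69.6. The list's summed signal lay between 2718 in sample 1 and 4097 in sample 5. Neurod2 and Neurod6, both members, are on this list, so the check partly restates them. Of 8 genes of the neighbouring thalamus and habenula 5 were above the array median as well, so these counts do not set the tissues apart. Of 5 choroid plexus genes on the array 2 were above the array median, Ttr and Folr1. Ttr was at 20.5 in sample 1 and at 1798 in sample 6, the lowest and the highest, and Folr1 was at 22.7 and 162 there. Of the other 3, Kl was highest in sample 6 (146), Aqp1 in sample 1 (34.4) and Cldn2 in sample 4 (17.4). The part of such tissue in the results below was not tested.

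Dcx was close to the array median in all samples. Its probe set (102307_at) gave signals of 82.9, 73.9, 64.0, 69.8, 75.5 and 55.4 in samples 1 to 6. Sample 1 was highest and sample 6 lowest, and sample 6 alone was under its array median. The range was 1.499-fold (0.58 on the log2 scale), wider than that of 74.6% of the 5642 named probe sets above the array median. That share takes all levels together, and ranges were wider near the array median. Of all genes with a median level between 0 and 1 (log2 of signal over array median), 42.2% passed 1.5-fold. Dcx lay in that band at 0.20, so 74.6% overstates how wide its range was for its level. When its value in sample 6 was raised to the array median, the range was 1.32-fold. In bulk tissue, fewer cells of a type and less RNA per cell cannot be told apart.

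Sox11, a SoxC factor of neuroblasts, had the widest range of the 6 members above the array median. Its brighter probe set (101631_at) gave 105, 133, 74.1, 135, 128 and 142 in samples 1 to 6. Sample 3 was lowest and sample 1 next, while the other 4 samples lay close together. The range was 1.83-fold (0.87 on the log2 scale, wider than 92.2% of named probe sets above the array median), and 1.36-fold without sample 3. The dimmer probe set (93669_f_at), whose name marks probes shared within a gene family, gave 22.4, 25.4, 18.2, 36.2, 24.3 and 16.3, all under the array median. It was highest in sample 4 and lowest in sample 6, with sample 3 next to lowest, so it did not single out sample 3. Over the 6 samples the correlation of both Sox11 probe sets was r = 0.29 (exact two-sided permutation p = 0.54) and rho = 0.09 (exact permutation p = 0.92).

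Sox4, the other SoxC factor measured, differed least. Its brighter probe set (160109_at) gave 191, 217, 200.5, 224, 211 and 197 in samples 1 to 6, a range of 1.16-fold. Only 11.2% of named probe sets above the array median had a smaller range. The second probe set (101430_at) gave 74.4, 89.7, 86.7, 69.5, 66.6 and 67.4, a range of 1.38-fold with samples 2 and 3 highest. The 2 probe sets were highest in different samples, 4 and 2, with r = 0.31 (exact two-sided permutation p = 0.52) and rho = 0.09 (exact permutation p = 0.92). In sample 3, where the brighter Sox11 probe set was lowest, the brighter Sox4 probe set had a middle value. The second Sox4 probe set had its next to highest value there (86.7).

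**Figure D1:**
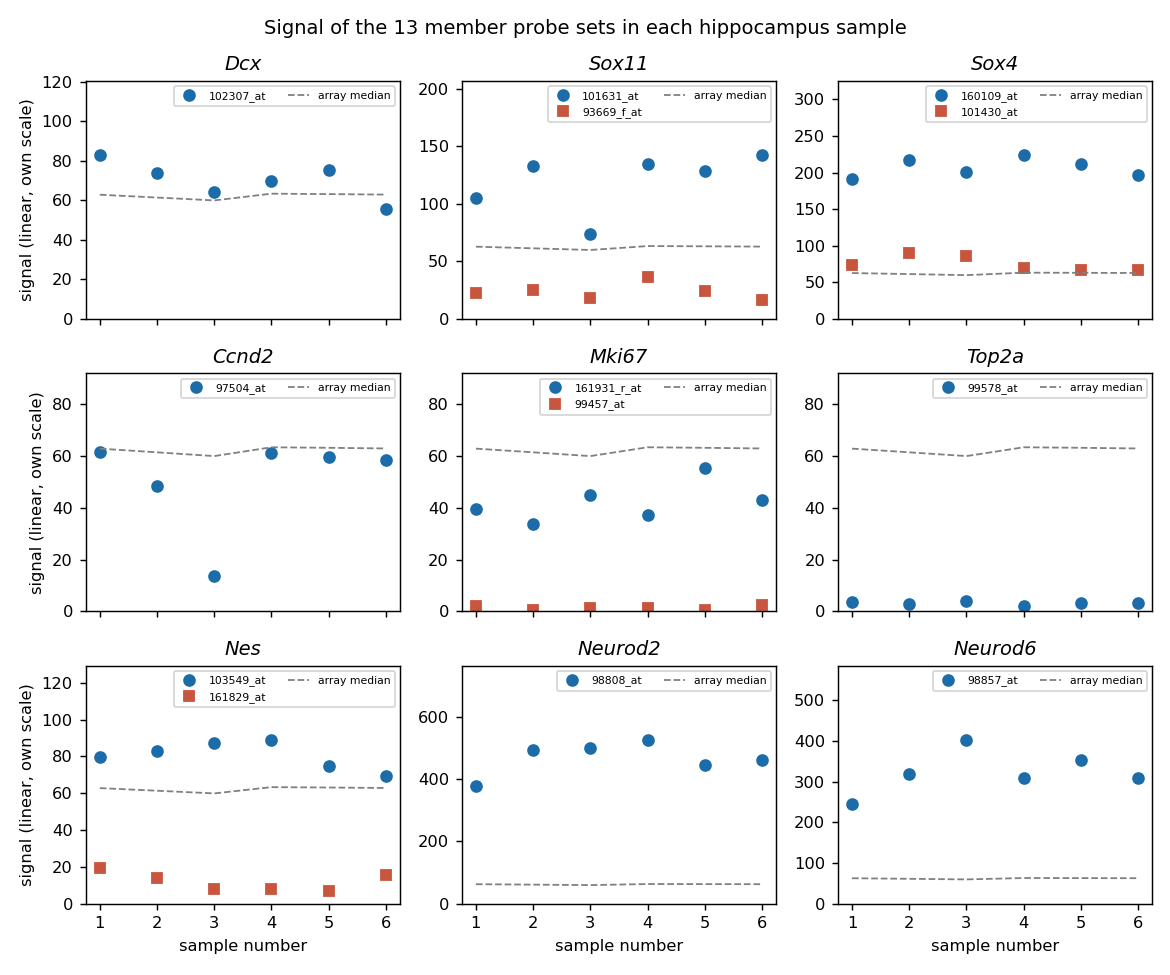
Signal of each of the 13 probe sets (linear vertical axes from 0, each gene on its own scale) in samples 1 to 6 (horizontal axis). Points are single arrays and the dashed line is the array median. Ccnd2 was at 13.8 in sample 3, Sox11 was lowest there at 74.1, and Top2a stayed between 2.20 and 4.11.

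Nes, the stem cell filament, was measured by a probe set just above the array median (103549_at) at 79.4, 82.8, 87.4, 89.1, 74.7 and 69.1 in samples 1 to 6. The range was 1.33-fold, near the middle of all probe sets above the array median (49.2% had less). The other Nes probe set (161829_at) lay far below the median at 19.4, 13.9, 7.98, 7.94, 6.78 and 15.8, with 3 of 6 values at the floor. It ran otherwise, with sample 1 highest (r = -0.40, exact two-sided permutation p = 0.44, rho = -0.52, exact permutation p = 0.33). Nes is also known from blood vessels. Of 8 endothelial genes on the array 3 were above the array median, and the summed signal of the 8 lay between 532 in sample 3 and 761 in sample 6. For the 3 genes, the median log2 deviation from a gene's own median was lowest in sample 3 (-0.29). It was 0.12 in sample 1 and 0.11 in samples 5 and 6. The part of blood vessels in the Nes signal was not tested.

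The division genes were dim. Top2a, the DNA topoisomerase of dividing cells (99578_at), gave 3.80, 2.82, 4.11, 2.20, 3.34 and 3.17, at most 0.069 of the array median, and every value was at the floor. Mki67, the Ki-67 antigen of cycling cells, gave 2.17, 0.437, 1.13, 1.42, 0.578 and 2.42 by one probe set (99457_at), all at the floor too. Its other probe set (161931_r_at), with a name that marks less specific probes, gave 39.3, 33.8, 44.8, 37.1, 55.2 and 42.9, under the array median in all 6 samples. No difference between samples can be read for Top2a or for the first Mki67 probe set. The range of 1.59-fold for the second Mki67 probe set rests on values not shown to be above background.

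Ccnd2, the D-type cyclin of neuronal progenitors, lay just under the array median in 5 samples and far under it in 1. Its probe set (97504_at) gave 61.6, 48.5, 13.8, 61.3, 59.5 and 58.2 in samples 1 to 6. Sample 3 stood apart at 0.231 of its array median, while samples 1, 4, 5 and 6 lay between 0.926 and 0.981. The measured range was 4.25-fold, and 1.24-fold without sample 3. All 6 values lay under the array median, so raising such values to it leaves no difference whatever their spread. Of 762 named probe sets whose median lay within 0.25 of the array median on the log2 scale, 21 (2.76%) had a range at least as wide. Of these 21, 7 were lowest in sample 3. Ccnd2 itself is counted in both numbers, and the share of all 762 that were lowest in sample 3 is not given here. In the same array the 3' to 5' signal ratios of the control transcripts for pyruvate carboxylase (3.56) and transferrin receptor (3.47) were the highest of the 6 arrays. The other arrays had 1.57 to 2.61 and 2.54 to 3.02. The beta-actin and Gapdh ratios, 1.21 and 0.820 in sample 3, were highest in sample 1 (1.27 and 0.860). The ratio for 18S RNA was also highest in sample 1 (10.3), with sample 3 next (7.71) and the other arrays at 1.59 to 4.98. Sample 1 was the lowest for Sox4, Neurod2 and Neurod6. The part of RNA quality in the low signals of samples 1 and 3 was not tested.

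Neurod2 and Neurod6 were far above the array median in all samples. Neurod2 (98808_at) gave 378, 493, 499, 526, 444 and 460.0 in samples 1 to 6, a range of 1.38-fold. Sample 1 was lowest, and without it the range was 1.18-fold. Neurod6 (98857_at) gave 244, 319, 403, 308, 352 and 309, a range of 1.73-fold (0.79 on the log2 scale, wider than 89.3% of named probe sets above the array median). Sample 1 was lowest and sample 3 highest, and without either of them the range was under 1.5-fold (1.38 without sample 1 and 1.43 without sample 3). Sox11 and Neurod6 thus differed in opposite directions in sample 3, the lowest sample for Sox11 and the highest for Neurod6.

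Of the 6 member genes above the array median, 2 (Sox11 and Neurod6) had a range over 1.5-fold, against 23.7% of all 4838 genes above the array median. Over probe sets it was 2 of 7, against 25.4% of 5642. No member had a range over 2-fold, against 4.13% of genes. The median range was 1.44-fold for the 6 members and 1.32-fold for all genes above the array median. Range depends on level. Among members with a median log2 level over 1, 2 of 4 passed 1.5-fold, against 16.3% of all such genes. Of those between 0 and 1 it was 0 of 2, against 42.2%. Without sample 3 no member passed 1.5-fold, against 18.2% of all genes, and without sample 1 only 1 did, against 17.9%. The count rests on these samples, and the share of all genes fell without them too. Dcx, at 1.499-fold just under the threshold, passed with quantile normalization (1.51-fold).

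**Figure D2:**
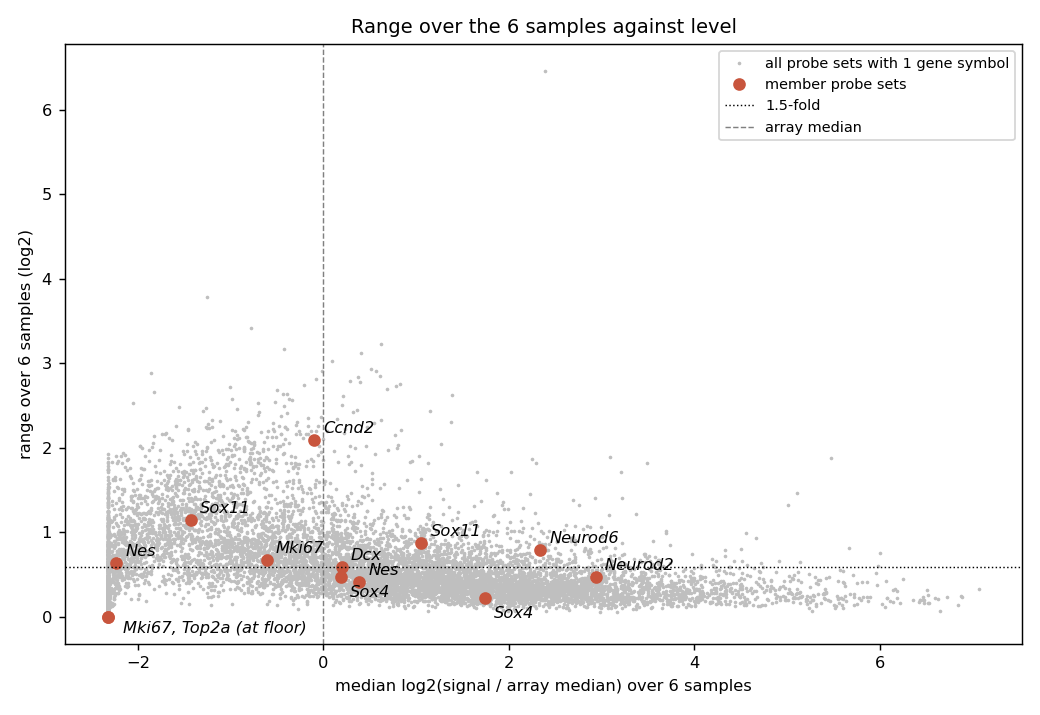
Range over the 6 samples (log2, vertical axis) against median level (log2 of signal over array median, horizontal axis) for every probe set with 1 gene symbol (grey) and the 13 member probe sets (red, named). The dotted line is 1.5-fold and the dashed line the array median. Sox11 at 0.87 and Neurod6 at 0.79 lie above the dotted line to the right of the dashed one, and Ccnd2 at 2.09 lies just left of it.

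The members did not share an order of samples. Sample 1 was lowest for 3 of the 6 (Sox4, Neurod2 and Neurod6), against 21.6% of all genes above the array median. Sample 3 was lowest for Sox11 alone, against 11.1%, sample 4 for none, against 20.7%, and sample 6 for Dcx and Nes, against 15%. Sample 3 was highest for 3 (Nes, Neurod2 and Neurod6), against 31.1% of all genes. That last count depends on scaling: with the deposited signal it was 1 (Neurod6), against 19.1% of all genes, and with quantile normalization 2, against 19.5%.

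Pairwise correlation over the 6 samples was computed for all 15 pairs of the 6 genes. After Benjamini-Hochberg adjustment over the 15 pairs, 0 passed 0.05 by either coefficient in exact two-sided permutation tests, which take the samples as exchangeable. Unadjusted, 1 pair passed by Pearson's r and 0 by Spearman's rho. That pair was Sox4 and Neurod2, with r = 0.82 (exact permutation p = 0.040, adjusted p = 0.60) and rho = 0.54 (exact permutation p = 0.30, adjusted p = 0.89). Without samples 1 and 6, the farthest from the Sox4 median, r was 0.48 over the 4 samples left. Neurod2 and Neurod6, the related bHLH factors, had r = 0.71 (exact permutation p = 0.14, adjusted p = 0.73) and rho = 0.49 (exact permutation p = 0.36, adjusted p = 0.89). Without samples 1 and 5, r was 0.47. Dcx and Sox11, both neuroblast genes, had r = -0.19 (exact permutation p = 0.64, adjusted p = 0.80) and rho = -0.26 (exact permutation p = 0.66, adjusted p = 0.89), and r turned to 0.73 without samples 6 and 1. The smallest p that 720 orders can give is 0.0014. All genes of a sample share 1 RNA extract and array, and no batch label was used.

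For each member the genes most alike in pattern over the 6 samples were sought among the other 4837 genes above the array median. For Sox11 they were Lims1 (r = 0.99), Tenm3 (0.99) and Gsdme (0.98), all lowest in sample 3. Tenm3, a teneurin of the neuronal surface, gave 81.4, 99.5, 58.1, 99.8, 94.4 and 112 in samples 1 to 6. For Neurod6 they were Nxf1, Tmem59 and Relb (each r = 0.99). For Dcx they were Rrp1 (0.98), Msx3 (0.97) and Mrpl48 (0.97), for Sox4 Nmt1 (0.99), Olfm1 (0.99) and Eif2s3y (0.98), for Nes Gtf2a2 (0.98), Fam220a (0.97) and Krt32 (0.97), and for Neurod2 Csnk2a1 (0.99), Cops6 (0.97) and Luc7l (0.97). With 6 samples such values are common: between 30 genes (Dcx) and 76 genes (Neurod6) had r over 0.9. No member was among the 3 most alike of another.

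The rest of the pathway was described from 8 lists, 158 genes on the array with the members left out, of which 94 (59.5%) were above the array median, against 58.6% of all genes. Of these 94, 43 (45.7%) had a range over 1.5-fold, against 23.7% of all genes, and 10 (10.6%) a range over 2-fold, against 4.13%. The share was above that of all genes at both levels. At a median log2 level over 1 it was 25 of 65 (38.5%), against 16.3%, and between 0 and 1 it was 18 of 29 (62.1%), against 42.2%. The lists were chosen with earlier results of these data known, so these shares are a description and not a test. High shares were also found outside these lists. Among marker lists, 5 of 7 oligodendrocyte, 4 of 6 meningeal, 3 of 5 thalamus and 4 of 6 hippocampal neuron genes passed 1.5-fold. Of the microglia genes it was 0 of 6.

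Division genes beyond the members were mostly dim as well. Of 31 on the array 11 were above the array median, and among the other 20 was Cdk1, the mitotic kinase, with signals from 3.88 to 9.06. Tk1, thymidine kinase of DNA synthesis, had the widest range, with 123, 91.9, 78.3, 42.5, 82.0 and 85.7 in samples 1 to 6 (2.92-fold). Ccna2, cyclin A2, gave 136, 133, 134, 137, 124 and 68.6 (2.04-fold), with sample 6 alone low. Of the 11, 5 passed 1.5-fold. Of 5 G1 cyclins and regulators above the array median 1 passed, Cdkn2c, a CDK inhibitor, at 1.74-fold, with Cdkn2d next at 1.49-fold. Ccnd1 and Ccnd3, the other D-type cyclins, ranged 1.29-fold each and showed no drop in sample 3, at 207 and 174 there.

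Stem cell and radial glia genes passed 1.5-fold in 7 of 13 cases, led by Lpar1 (1.95-fold, 76.6 in sample 1 and 142 in sample 3) and the receptor Notch1 (1.87-fold, highest in sample 4 at 155). Of 12 progenitor and neurogenic factors on the array 5 were above the array median. Eomes, the T-box factor of intermediate progenitors, gave 2.52 to 12.96, and Neurod1, which drives granule neuron maturation, gave 47.2 to 65.2. Of the 5, 3 passed, with Klf7 widest at 2.44-fold (60.4 in sample 3, 151 in sample 2) and Tcf4, a bHLH partner, next at 1.58-fold. Niche signals and receptors passed in 9 of 19 cases, led by Fgfr3 (5.07-fold) and the BMP antagonist Chrd (3.54-fold), both with values under the array median.

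Immature neuron genes were most often lowest in sample 4. Of 23 on the array 21 were above the array median and 8 passed 1.5-fold. Sample 4 was lowest for 13 of the 21, against 20.7% of all genes. Of the members it was 0 of 6, too few genes to set apart from that share, and the difference between the list and the members was not tested. Samples 1 or 2 were highest for 12 of the 21, against 32.9% of all genes. With the deposited signal these counts were 12 and 13, against 17.5% and 35.1% of all genes. With quantile normalization they were 12 and 12, against 17.5% and 35.2%. Counts of this kind were made for all 8 lists and 6 samples, and the one for sample 4 was singled out without correction for that choice. The G1 cyclin list was lowest in sample 5 for 4 of its 5 genes above the array median. The share of all genes lowest in sample 5 was close to that for sample 4. St8sia2, which adds polysialic acid to NCAM on young neurons, gave 100.3, 86.4, 79.3, 33.6, 45.8 and 48.0 in samples 1 to 6 (3.01-fold). Nnat, neuronatin, was next at 1.99-fold, with a probe set whose name marks shared probes. Stmn1, a microtubule regulator, gave 2433, 1917, 2044, 1552, 1684 and 1822 (1.58-fold), and Ncam1, the adhesion molecule, 737, 719, 658, 546, 577 and 657 (1.36-fold). Elavl4 itself is on this list and gave 84.6, 116, 96.2, 65.2, 82.5 and 110, so sample 4 was its lowest. It did not follow the list in every sample. Its log2 deviation from its own median was -0.13 in sample 1, where the median of the list was 0.11. For sample 6 these values were 0.26 and -0.01. The part of genotype in the Elavl4 signals was not tested. Many genes of this list are also expressed by mature neurons. Dcx, the member closest to them in function, was 0.06 below its own median in sample 4 on the log2 scale.

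**Figure D3:**
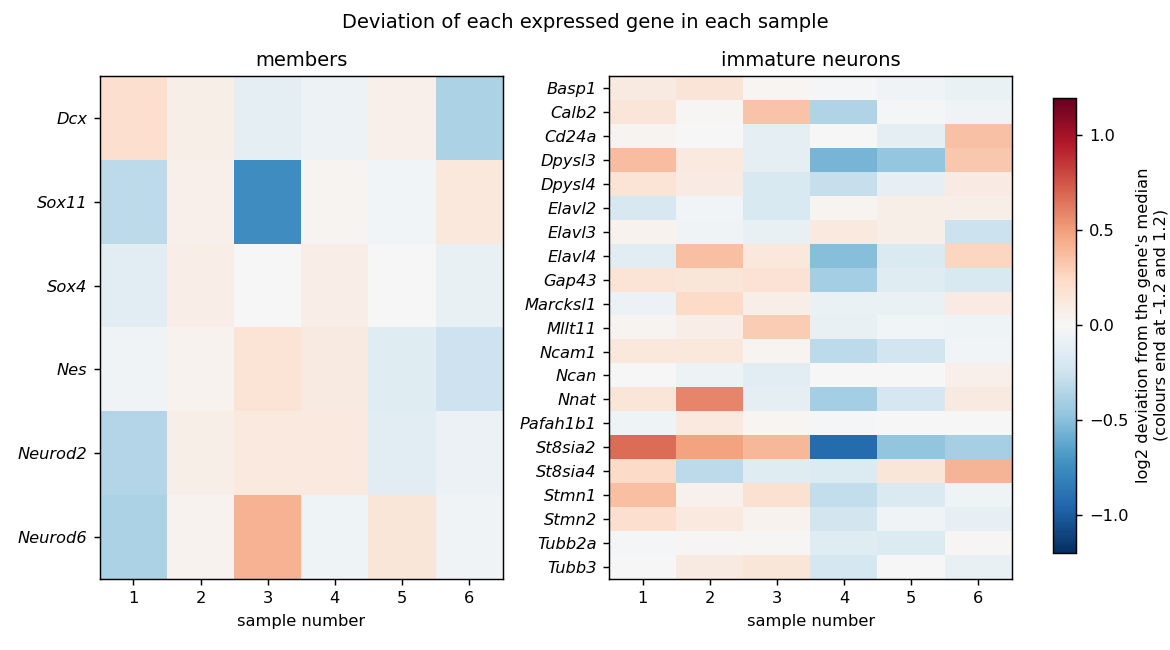
Log2 deviation of each gene from its own median over the 6 samples (colour, red above and blue below) for the 6 members above the array median (left) and 21 immature neuron genes (right), with samples 1 to 6 along the horizontal axes. Sox11 is 0.75 below its median in sample 3, and St8sia2 is 0.92 below its median in sample 4.

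Beside this pattern, list scores, the median log2 deviation of a list's genes in a sample, were 0.11, 0.11, 0.03, -0.21, -0.08 and -0.01 for immature neurons in samples 1 to 6. For 6 meningeal and fibroblast genes above the array median of 9 on the array they were 0.24, 0.32, -0.17, -0.15, -0.20 and 0.27. The meningeal list's summed signal lay between 3144 in sample 5 and 7054 in sample 2. For 7 oligodendrocyte genes of 8 on the array the scores were -0.28, -0.20, 0.13, 0.18, 0.14 and -0.06, lowest in samples 1 and 2 and highest in sample 4. The oligodendrocyte sum lay between 4721 in sample 1 and 6547 in sample 5. For the 2 choroid plexus genes above the array median the scores were -2.92, -1.93, -0.57, 1.39, 0.59 and 1.72, with samples 1 and 2 again at the bottom and sample 6 on top. The sum of all 5 choroid plexus genes lay between 134 in sample 1 and 2133 in sample 6. Thalamus and habenula genes scored -0.29, -0.15, 0.09, -0.02, 0.20 and 0.02, also lowest in samples 1 and 2. For hippocampal neuron genes, with Neurod2 and Neurod6 among them, the scores were -0.37, 0.05, -0.18, 0.11, 0.09 and -0.04. Scores of the other marker lists are not all given. The part of meninges, oligodendrocytes, choroid plexus, thalamus or mature neurons in the immature neuron pattern was not tested.

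Among mature neuron lists, dentate granule genes passed 1.5-fold in 2 of 8 cases, led by Lct (1.92-fold, highest in sample 4 at 216) and Tdo2 (1.75-fold). Pyramidal neuron genes passed in 8 of 13, led by Bok (3.64-fold) and the kinase subunit Camk2a (3.51-fold, lowest in sample 3 at 275, where Neurod6 was highest).

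**Figure D4:**
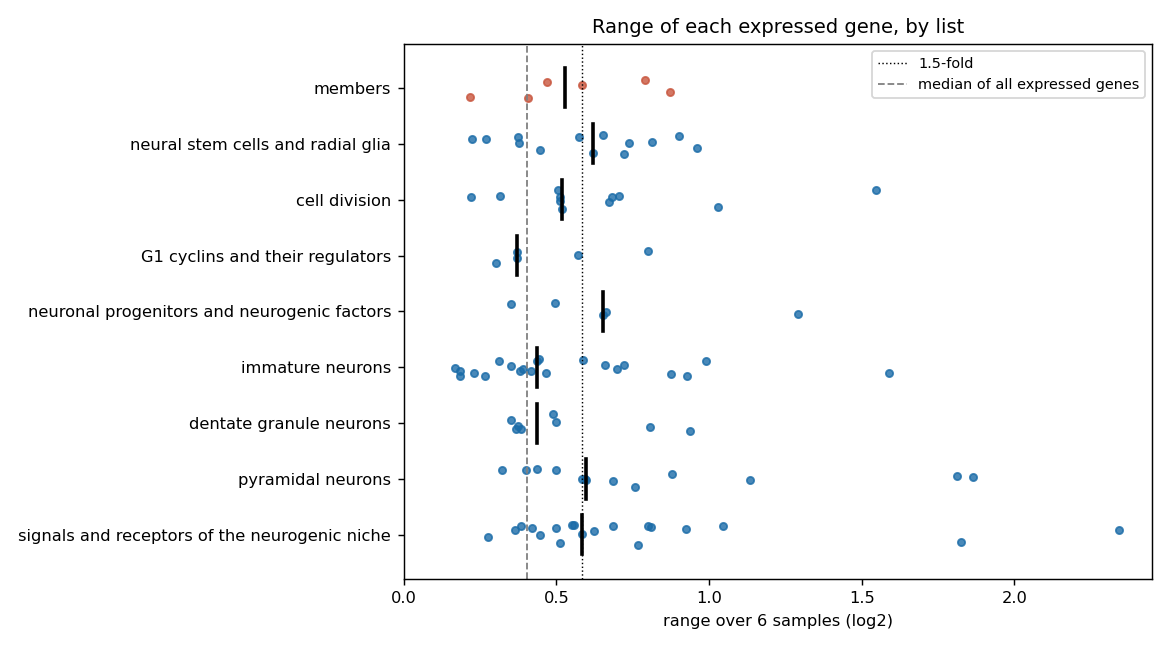
Range over the 6 samples (log2, horizontal axis) of each gene above the array median, by list, with the members on top (red). Vertical bars are list medians, the dotted line is 1.5-fold and the dashed line the median of all 4838 genes. The members' median is 0.53, between those of the G1 cyclin list (0.37) and the neuronal progenitor list (0.65).

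Other sources of young or dividing cells were read from marker lists. Of 2 oligodendrocyte precursor genes on the array both were above the array median: Pdgfra, the growth factor receptor of these dividing cells, ranged 1.53-fold with sample 3 lowest at 225, and Sox10 ranged 1.26-fold. The summed signal of both lay between 514 in sample 3 and 618 in sample 6. For neuroblasts of the subventricular zone, Dlx1, Dlx2 and Dlx5 were all under the array median in their medians over samples, at 56.5 to 70.5, 23.3 to 29.2 and 27.8 to 38.6. Gad1 and Gad2, also genes of hippocampal interneurons, were above it, and the list's summed signal lay between 1573 in sample 4 and 1838 in sample 5. The part of these cells in the members' signals was not tested.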

How the data were processed

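RNA from 6 mouse hippocampus samples was measured on 1 oligonucleotide array each. The authors deposited linear signal intensities for each probe set, with 0 missing values. How they were summarised and scaled is not recorded in the labels, and the equal trimmed means are read from the values. GEO's platform annotation named the probe sets, with symbols updated by gene identifier through RefSeq (GRCm38.p6). The 66 control probe sets were left out, and only the 10833 with 1 symbol were used. Intensities were divided by the array median, floored at 0.2 and set to log2. The probe set with the highest mean stood for a gene in lists and pairs. No group was assigned, so no fit or comparison between groups was made. Correlations were tested exactly over 720 sample orders. Calculations used Python 3.11.15, numpy 2.4.6, pandas 2.3.3 and matplotlib 3.10.9, and were tested on simulated data. The number of arrays limits the precision.

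The members and lists were chosen with earlier results of these data known. The immature neuron pattern in sample 4 was singled out from counts for all lists and samples. Genes named are all members, the 2 widest genes above the array median in each neurogenesis list and the 3 most alike to each member. Others (Cdk1, Ccnd1, Ccnd3, Eomes, Neurod1, Stmn1, Ncam1, Elavl4, Prox1 and the choroid plexus, precursor and neuroblast markers) were chosen after their values were seen or as checks of tissue. Alternatives were the floor, scaling, filter, probe set rule, fold and leaving out each sample. The oligodendrocyte, microglia and thalamus lists had 7, 6 and 5 genes above the array median, of which 5, 0 and 3 passed 1.5-fold. Both choroid plexus genes above it passed, as did 4 of 6 meningeal, 2 of 3 endothelial, 1 of 2 precursor, 1 of 2 neuroblast and 4 of 6 hippocampal neuron genes. The member Neurod6 was among those last 4.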

Additional observations from a re-analysis of the deposited data

Results flagged for a closer look

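The Ccnd2 signal of sample 3 stood apart from those of the other 5 samples. The gap between the lowest and the next sample took 0.850 of the whole range on the log2 scale, past Dixon's critical value for 6 samples. The 6 samples have no known genotype and are not a group of replicates. About 1 in 20 groups is marked by chance, and of the 5642 named probe sets above the array median 354 (6.27%) were. Ccnd2, under the array median, is not in that set, and no such share is given for its own level. No other member probe set was marked.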

How the results depend on the processing

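No paired analysis was possible because the labels give no groups. The count of members past 1.5-fold, 2 of 6, was 1 of 3 with the filter at the 75th percentile (12.5% of all genes), 4 of 9 with no filter (36.2%), 1 of 4 with the mean of a gene's probe sets (22.3%) and 0 over 2-fold (4.13%). It ran from 0 (without sample 3, 18.2% of all genes) to 2 when each sample was left out in turn. The share of all genes ran from 17.9% to 21.0% there. The probe set count, 2 of 7, was 1 of 3 with the stricter filter (13.3% of all probe sets), 6 of 13 with no filter (37.4%) and 0 over 2-fold (4.87%). With samples left out it ran from 0 to 2, against 19.2% to 22.3% of all probe sets. The count of related genes, 43 of 94, was 19 of 54 with the stricter filter, 79 of 158 with no filter and 10 over 2-fold, beside the same shares of all genes. With samples left out this count ran from 35 to 39, against 17.9% to 21.0% of all genes. The share of all genes thus moved with the filter and with the samples left out too. The other alternatives kept these counts within 1.5 times, with 3 members and 3 probe sets under quantile normalization. The count of correlated pairs was 0 under every alternative run. With 5 samples, no pair could pass on its own after adjustment over 15 pairs, whatever its r. The runs with a sample left out therefore do not show stability of this count. Signals near or under the array median (Dcx, Nes, Ccnd2, Mki67, Top2a) limit what can be read, and no detection call was used.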
